A study of Mus musculus with 12 samples.

Results

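Gene expression was read in wild-type mIMCD3 cells, a mouse line derived from the inner medullary collecting duct, the last stretch of the kidney tubule. The samples were the 4 wild-type RNA-seq libraries (Wt, replicates 1 to 4) of a series of 12, chosen by their genotype label alone. The remaining libraries are from *Pkd1*-/- and *Pkd2*-/- clones of the same line and were not compared here. The line was isolated from mice that carry the SV40 early region as a transgene, and all 4 wild-type samples share it. Cells grew on plastic dishes in DMEM-F12 medium with 10% serum, were taken 4 days after they had reached full confluency, and 4 of 6 dishes were sequenced, picked by the purity of their RNA. The libraries are therefore dishes of 1 immortalized line, and their spread contains neither differences between animals nor between isolates of the line.

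In the kidney, the collecting duct sets how much water, salt and acid leave in the urine. Its principal cells take up sodium through the epithelial sodium channel and water through aquaporins under the control of aldosterone and vasopressin, and its intercalated cells move acid and base. The inner medullary part also carries urea and stores organic osmolytes against the salty surroundings. The duct arises from the ureteric bud, an outgrowth of the nephric duct, whereas all tubule segments upstream arise from separate nephron progenitors. Which of these programs the cultured line carries was read here from the level of each gene.

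The deposited values were normalized counts, that is, read counts divided by a size factor per library and rounded. They summed to between 25966273 and 26859930 per library, which corresponds to an estimated 23188147 to 28800214 reads on genes. To compare genes with each other, counts were divided by the length of the merged exons and scaled so that each library sums to 1000000 (TPM, a level per transcript length). Throughout, values after ± are the SD of the 4 libraries (n = 4). A gene was taken as expressed at a mean of at least 1 TPM. It was taken as not detected at this depth where every library held at most 3 normalized counts, the floor that a count of 0 allows, for counting error only. The libraries resembled each other closely, with Pearson's r between 0.992 and 0.993 on the log2 scale over 13657 genes, a value across genes, which are not independent replicates.

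All 4 genes taken as markers of the line were expressed. *Krt19*, a keratin of simple duct epithelia, had 4579, 4850, 4429 and 4030 normalized counts in replicates 1 to 4, or 308 ± 26.0 TPM. *Spp1*, which encodes the secreted phosphoprotein osteopontin, had 4180, 3826, 3578 and 3880 normalized counts, or 300 ± 16.9 TPM. Their ranges over the libraries overlapped, and *Krt19* over *Spp1* was 1.03 ± 0.0980 in TPM.

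*Pkd2*, which encodes the cation channel polycystin-2, had 4190, 3438, 3790 and 4467 normalized counts. Its count was close to that of *Spp1*, but its merged exons are 10169 bases long against 1648, so that its level per length was 49.9 ± 5.22 TPM. *Hoxb13*, a homeobox factor of the caudal end of the body axis, had 513, 615, 595 and 548 normalized counts, or 32.9 ± 2.98 TPM. In order of TPM, *Krt19* ranked 477 and *Spp1* 508 among the 21619 protein-coding genes of the table, and *Pkd2* ranked 4035 and *Hoxb13* 5377. Neither *Pkd2* nor *Hoxb13* overlapped with the pair above them in any library, and *Pkd2* did not overlap with *Hoxb13*.

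*Krt19* lies on chromosome 11 (GRCm38, 100140810 to 100148665, minus strand), as does *Hoxb13* (96194316 to 96197447, plus strand). *Spp1* and *Pkd2* are neighbors on the plus strand of chromosome 5, at 104435118 to 104441050 and 104459450 to 104505819.

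Promoter sequence was set beside these levels, since genes with and without detectable expression differed in how many CG dinucleotides their promoters hold. Promoters were taken from RefSeq for GRCm38.p6, from 250 bases before to 50 bases after the start site. The 4 shown are those of *Krt18*, the keratin with the highest level, of the neighbors *Spp1* and *Pkd2*, and of *Aqp2*, the vasopressin-regulated water channel that was not detected. Capitals mark each CG dinucleotide.
Krt18, chr15:102027966-102028265, plus strand: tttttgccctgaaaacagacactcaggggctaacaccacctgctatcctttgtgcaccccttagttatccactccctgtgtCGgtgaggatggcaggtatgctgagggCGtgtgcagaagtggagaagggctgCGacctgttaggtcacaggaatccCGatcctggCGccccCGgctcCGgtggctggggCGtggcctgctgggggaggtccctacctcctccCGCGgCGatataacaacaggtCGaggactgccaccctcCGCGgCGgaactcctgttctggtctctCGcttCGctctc
Spp1, chr5:104434861-104435160, plus strand: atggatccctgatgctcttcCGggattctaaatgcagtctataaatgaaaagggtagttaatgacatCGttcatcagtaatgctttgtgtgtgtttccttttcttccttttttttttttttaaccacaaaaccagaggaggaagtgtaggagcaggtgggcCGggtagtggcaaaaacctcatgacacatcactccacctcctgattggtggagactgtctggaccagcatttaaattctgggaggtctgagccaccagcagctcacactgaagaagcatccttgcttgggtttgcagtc
Pkd2, chr5:104459207-104459506, plus strand: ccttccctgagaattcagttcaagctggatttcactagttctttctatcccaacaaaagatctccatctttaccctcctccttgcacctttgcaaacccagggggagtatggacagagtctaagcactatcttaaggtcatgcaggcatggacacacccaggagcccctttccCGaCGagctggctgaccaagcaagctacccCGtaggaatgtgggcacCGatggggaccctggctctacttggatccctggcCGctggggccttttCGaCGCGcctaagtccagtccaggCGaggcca
Aqp2, chr15:99578806-99579105, plus strand: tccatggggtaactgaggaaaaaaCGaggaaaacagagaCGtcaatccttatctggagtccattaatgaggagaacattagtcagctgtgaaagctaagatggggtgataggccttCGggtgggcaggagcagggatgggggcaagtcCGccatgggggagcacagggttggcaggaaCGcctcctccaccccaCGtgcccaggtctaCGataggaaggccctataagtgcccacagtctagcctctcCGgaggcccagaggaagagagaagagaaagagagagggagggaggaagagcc
These windows hold 17 CG dinucleotides for *Krt18*, 3 for *Spp1*, 9 for *Pkd2* and 8 for *Aqp2*. The expressed *Spp1* thus held fewer than the undetected *Aqp2*. For *Spp1*, 2 windows are listed and the first is shown. *Krt19* and *Hoxb13* have no promoter in the set used.

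Of 20003 promoters of the protein-coding genes measured, 58.7% held at least 10 CG dinucleotides, and 43.5% of all 32851 in the RefSeq set did. The share was 82.7% of 11134 promoters whose gene was at or above 1 TPM and 23.6% of 7134 whose gene was not detected, with a median of 21 and 4 CG dinucleotides. The letters TATAAA, on either strand, were found in 12% of the promoters of protein-coding genes measured (13.6% of all promoters), in 6.43% of those of expressed genes and in 20.8% of those of undetected genes. For GGGCGG, the core of a GC box, which itself holds a CG, the shares were 48.0% (35.7% of all), 64.9% and 22.4%. CCAAT was found in 37.8% (37.4% of all), 38.1% and 37.5%. The window of *Spp1* shown holds 1 TATAAA, 211 bases before the start site, and 1 CCAAT on the opposite strand, 46 bases before it. A gene can have several windows in the table, and a match of letters does not show that a factor binds.

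Of the 21619 protein-coding genes, 10932 (50.6%) were at or above 1 TPM, 8653 of them at or above 10 TPM, 2048 at or above 100 TPM and 86 at or above 1000 TPM. A further 1890 lay under 1 TPM but above the floor in at least 1 library, and 8797 (40.7%) were not detected. The shares of 50.6% and 40.7% stand beside the counts of lists and families that follow. The 100 highest genes took 13.5% to 15.2% of the counts of a library.

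By normalized count, the highest genes were the mitochondrial *mt-Co1* and *mt-Cytb*, with means of 216529 and 152047. The elongation factors *Eef2* and *Eef1a1* followed with 128555 and 115836, and then the chaperone *Hsp90ab1* with 84695, the amyloid precursor gene *App* with 83631, *mt-Nd1* with 81462 and the beta-actin gene *Actb* with 71456. *Rack1*, *Rpl8*, *Rplp0*, *Tubb5*, *mt-Nd5*, *Ccn1*, *H3f3b*, *Tpt1*, *Atp5b*, *Rpl4*, *Ddb1* and *Pabpc1* completed the first 20. By TPM, 13 of these genes stayed among the first 20, where 7 were mitochondrial and 6 were named as ribosomal protein genes. *Ccn1* was the matricellular gene in both, at 3115 ± 947 TPM.

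The length chosen for a gene changed its level where merged exons are much longer than the principal transcript. *App* had 823 TPM with merged exons of 12996 bases and 2275 TPM with the principal transcript of 3176 bases. *Rack1*, a ribosome-bound scaffold gene, had 1517 and 3626 TPM in the same way.

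For genes with near-identical copies elsewhere in the genome, a low value does not show a low transcript level. *Gapdh*, a glycolysis gene with many processed copies, had 1075, 1127, 1008 and 1036 normalized counts. Of the mitochondrial genes, *mt-Co2* had 173 to 427 normalized counts beside 123871 to 341606 for *mt-Co1*, and the unprocessed pseudogenes *Gm10925* and *Gm28437* had 564 to 2071 and 546 to 1878. Of the heat shock pair *Hspa1a* and *Hspa1b*, *Hspa1b* had 87.3 ± 14.3 TPM and *Hspa1a* 1.01 ± 0.0902. The processed pseudogene *Gm9794*, of only 423 bases, stood among the 20 highest by TPM at 3141 ± 151. How reads with several matches were counted is not given in the sources used here, and values of such genes are uncertain. *Gapdh* and *mt-Co2* were chosen after their values were seen.

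To place the line along the nephron, 15 lists of genes known for a kidney cell type were read. They hold 186 distinct genes, of which 57 (30.6%) were at or above 1 TPM, 36 lay between and 93 were not detected. The inner medullary collecting duct list had 7 of 15 members at or above 1 TPM, with a summed 997 ± 33.8 TPM, and the ureteric bud and nephric duct list had 12 of 25, with a summed 977 ± 19.4 TPM. The principal cell list had 6 of 18 (688 ± 24.2 TPM), and its sum without *Npnt* was 68.2 TPM, beside 69.4 TPM for the whole urothelium list. These lists overlap, and *Wnt7b* alone gave 383 ± 22.3 TPM to both of the former. The share over all protein-coding genes was 50.6%. Of the 15 lists only that of the parietal epithelium, with 5 of 6 members, was above it, and the lists of the thin limb (3 of 6), the pelvic urothelium (6 of 12) and nephron progenitors (5 of 10) were just under it.

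At the other end, the thick ascending limb list (0 of 10 members at or above 1 TPM) and the endothelium list (0 of 12) summed to 0.843 ± 0.144 and 0.655 ± 0.155 TPM. With the principal transcript as the gene length, 1 thick ascending limb gene was at or above 1 TPM. Only 3 of 18 proximal tubule genes, 3 of 17 intercalated cell genes and 3 of 12 genes of the distal convoluted and connecting tubule were at or above 1 TPM.

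**Figure D1:**
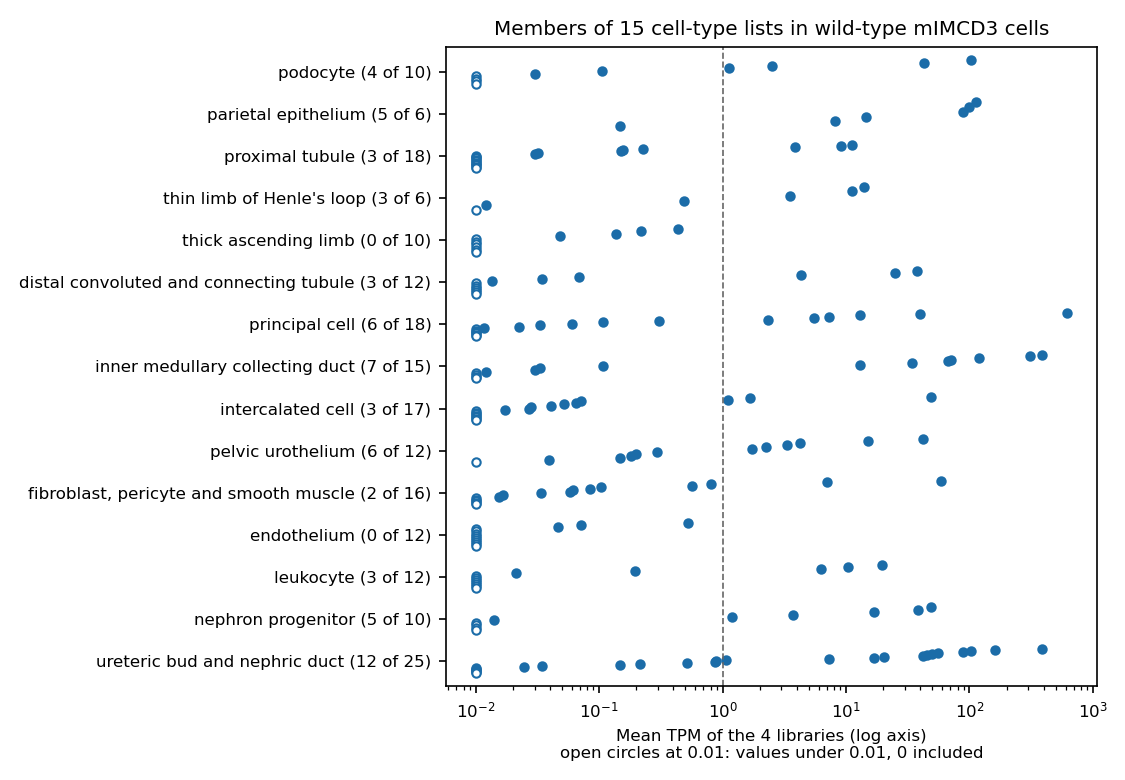
Each point is a gene of a cell-type list (rows, with the number of members at or above 1 TPM), plotted by its mean TPM over the 4 wild-type libraries on a log axis, with values under 0.01 drawn as open circles at 0.01. The inner medullary collecting duct, principal cell and ureteric bud lists reach above 300 TPM, while no thick ascending limb or endothelial gene passes the dashed line at 1 TPM.

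Of 18 principal cell genes, 6 were at or above 1 TPM, with *Npnt* far above the rest, and 10 were not detected. *Npnt*, which encodes the basement membrane protein nephronectin, had 23749, 23575, 24841 and 25362 normalized counts, or 620 ± 25.1 TPM, and ranked 178 by TPM. *Wnt7b*, a ligand that the duct epithelium secretes, is not in this list but leads the inner medullary list. It had 13667, 15032, 15245 and 14762 normalized counts, or 383 ± 22.3 TPM. Neither overlapped with the next member of its list, *Scnn1g* at 39.6 ± 2.04 TPM in the principal cell list and *Krt19* in the inner medullary list.

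Of the principal cell list, the sialyltransferase gene *St6gal1* had 12.9 ± 1.08 TPM and the factor *Gata3* with 7.29 ± 1.12. *Hsd11b2*, whose enzyme keeps cortisol and corticosterone away from the mineralocorticoid receptor, had 5.53 ± 0.379 TPM. The receptor itself, *Nr3c2*, had 19, 14, 4 and 26 normalized counts (0.308 ± 0.177 TPM), whereas the glucocorticoid receptor *Nr3c1* had 2055 to 2432 (37.8 ± 2.77 TPM). The potassium channel genes *Kcnj1* and *Kcne1* were at 0 in every library, as was the hormone gene *Stc1*.

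*Aqp2*, *Aqp3*, *Aqp4*, *Avpr2*, *Slc14a1* and *Slc14a2*, the genes for water channels, the vasopressin receptor and urea transporters, had at most 6 normalized counts in any library. *Aqp2* was at 0 in all 4 libraries, which allows up to 3 counts in each, or 0.27 TPM. *Aqp4*, the water channel of the basolateral side, was likewise at 0. *Avpr2*, the vasopressin receptor, had 0, 1, 1 and 0 normalized counts, and the urea transporter gene *Slc14a2* had 0, 1, 0 and 1. *Aqp3* had 6 counts in replicate 3 and 0 in the others, and the second urea transporter gene *Slc14a1* 5 in replicate 2 and 0 in the others.

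Of 11 aquaporin genes, only *Aqp1*, the water channel of the proximal tubule and thin limb, was at or above 1 TPM, with 204, 245, 240 and 233 normalized counts (11.2 ± 0.952 TPM). It held 93.9% of the summed TPM of the family. *Aqp11*, an intracellular member, had 26 to 47 normalized counts (0.450 ± 0.125 TPM).

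The epithelial sodium channel is built of 3 subunits, and their transcripts were unequal. *Scnn1g* (gamma) had 951, 988, 876 and 896 normalized counts and *Scnn1a* (alpha) 76, 78, 68 and 80, so that gamma over alpha was 17.0 ± 1.05 in TPM and 14.4 by the principal transcripts. *Scnn1b* (beta) had 1, 3, 1 and 0, at the floor, although it lies near *Scnn1g* on chromosome 7. The FXYD genes that adjust the sodium pump in the medulla, *Fxyd2* and *Fxyd4*, were not detected. The protease gene *Prss8* and the protease inhibitor gene *Spint2*, whose products are known to act on the channel, had 88.0 ± 8.03 and 561 ± 36.5 TPM, and the ubiquitin ligase gene *Nedd4l* and the kinase gene *Sgk1* had 17.8 ± 0.429 and 25.2 ± 4.91.

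**Figure D2:**
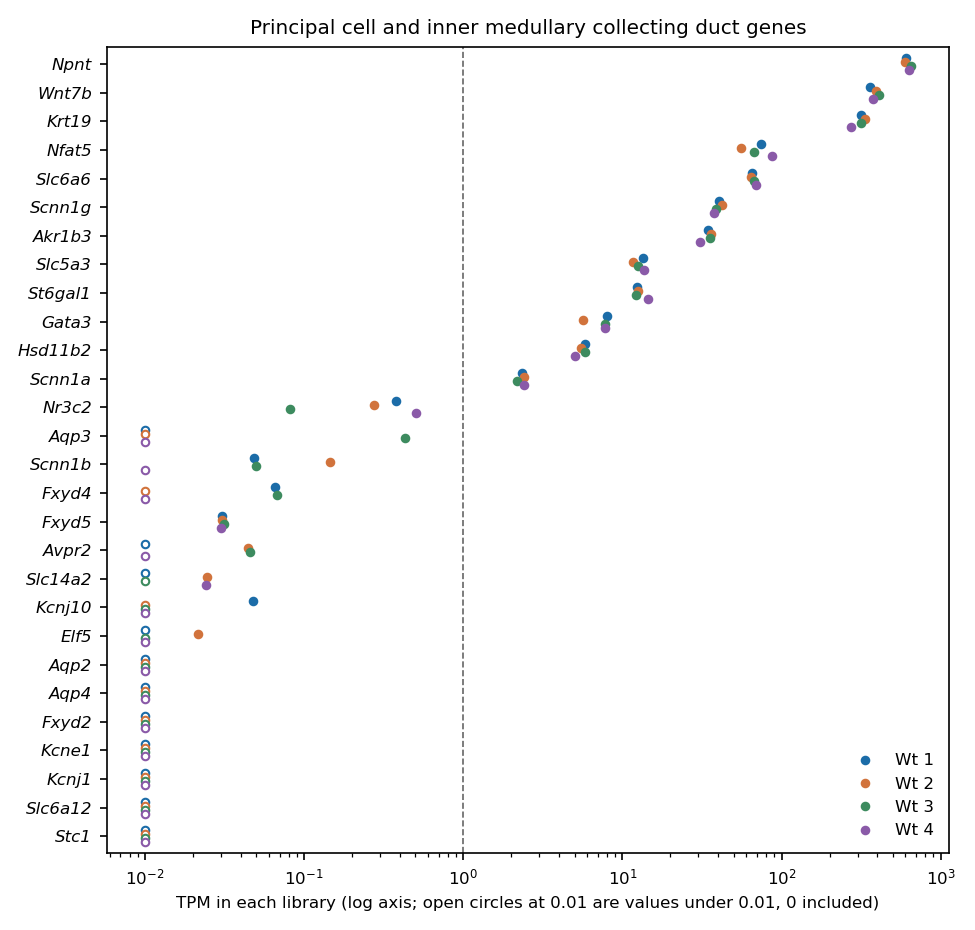
Shown are 28 genes of the principal cell and inner medullary collecting duct lists, ordered by mean TPM, with a point for each of the 4 wild-type libraries on a log axis and values under 0.01 as open circles at 0.01. The 12 uppermost genes lie at or above 1 TPM in every library, and the water channels *Aqp2* and *Aqp4* lie at the left edge in all 4.

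Of the osmolyte and hypertonicity list, 13 of 14 members were at or above 1 TPM, beside 50.6% of all protein-coding genes. With a library left out the count was 12 or 13. It includes *Gpx1*, the highest member at 287 ± 25.2 TPM, and *Hspa1a*, at 1.01 ± 0.0902 TPM, whose value is uncertain because of its near-identical copy. *Nfat5*, the factor that responds to hypertonicity, had 10635, 8084, 9341 and 12750 normalized counts (70.9 ± 12.9 TPM). The taurine transporter gene *Slc6a6* had 66.6 ± 2.29 TPM, the inositol transporter gene *Slc5a3* 12.9 ± 0.922, and the sorbitol-making aldose reductase gene *Akr1b3* 34.1 ± 2.49. For *Akr1b3* the merged exons of 8384 bases weigh on the level, which was 139 TPM with the principal transcript of 1387 bases. The betaine transporter gene *Slc6a12* was the exception, at 0 in every library.

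Intercalated cell genes were mostly undetected, with 10 of 17 at the floor and 4 between. *Foxi1*, the factor that defines these cells, and *Kit* were at 0 in every library. The anion exchanger gene *Slc4a1* had 0, 6, 2 and 0 normalized counts, and *Slc26a4*, for pendrin, had 4, 0, 0 and 0. *Car2*, which encodes carbonic anhydrase II and is not limited to these cells, had 857, 932, 994 and 889 (48.5 ± 4.02 TPM). Of the proton pump subunits, the intercalated cell form *Atp6v1b1* had 65, 76, 58 and 29 (1.67 ± 0.592 TPM), with replicate 4 below the others, beside 6689 to 6996 (165 ± 6.56 TPM) for the form used by most cells, *Atp6v1b2*. *Atp6v1c2* had 1.10 ± 0.423 TPM, and *Atp6v1g3* and *Atp6v0d2* were at 0. In all, 18 of 23 proton pump genes were at or above 1 TPM.

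Of the segments upstream, the thin limb list had 3 of 6 members at or above 1 TPM, *Bst1* at 14 ± 0.968 TPM, *Aqp1*, and the transporter gene *Slc4a11* at 3.54 ± 0.471. In the parietal epithelium list 5 of 6 were, among them *Akap12* at 99.3 ± 8.01 TPM, *Cldn1* at 14.6 ± 0.702 and *Cd44* at 8.21 ± 0.547. In the proximal tubule list, *Aqp1*, the creatine synthesis gene *Gatm* (9.18 ± 1.54 TPM) and *Lrp2*, for the uptake receptor megalin (3.89 ± 0.277 TPM), were at or above 1 TPM. The phosphate, glucose and organic anion transporter genes *Slc34a1*, *Slc5a2*, *Slc22a6* and *Slc22a8* and the segment's factor *Hnf4a* were at 0 in every library. In the thick ascending limb list, *Slc12a1*, *Cldn16* and *Casr* were at 0, and *Umod*, for uromodulin, had 0.137 ± 0.133 TPM. Of the distal convoluted tubule genes, the cotransporter gene *Slc12a3*, *Pvalb* and *Trpv5* were at 0. The kinase genes *Wnk1* and *Wnk4* had 37.3 ± 3.90 and 25.0 ± 1.13 TPM and the magnesium channel gene *Trpm6* 4.29 ± 0.440.

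Other cell types were represented by some members of each list but for the endothelium, with 6 of 12 urothelial genes at or above 1 TPM, 4 of 10 podocyte genes, 3 of 12 leukocyte genes and 2 of 16 genes of fibroblasts, pericytes and smooth muscle. Of the urothelial plaque genes, *Upk3a* had 324, 405, 343 and 366 normalized counts (42.0 ± 3.77 TPM) and *Upk1a* 145, 178, 161 and 182 (15.0 ± 1.37 TPM), while their partners *Upk2* and *Upk1b* had 0.147 ± 0.111 and 0.198 ± 0.156 TPM and the basal marker *Krt5* was at 0. *Krt15*, *Grhl3* (3.31 ± 0.677 TPM), *Krt20* (2.25 ± 0.195) and *Upk3b* (1.72 ± 0.373) were the other urothelial members at or above 1 TPM. *Foxd1*, a factor of the kidney stroma, had 2230 to 2512 normalized counts (59.1 ± 2.72 TPM) and the smooth muscle actin gene *Acta2* had 6.96 ± 0.954 TPM, while *Pdgfra*, *Tcf21* and *Ren1* were not detected. *Csf1r*, the receptor of macrophages for colony-stimulating factor 1, had 828, 839, 914 and 941 (19.5 ± 1.29 TPM) and *Cd74* 131 to 142 (10.4 ± 0.307 TPM), and *Cd68* had 6.29 ± 0.644 TPM. The defining leukocyte genes *Itgam*, *Adgre1*, *Lyz2*, *Tyrobp*, *C1qa* and *Cd3e* were at 0 in every library, and *Ptprc* had 0.0211 ± 0.0130 TPM. Of the podocyte genes, *Kirrel* and *Synpo* had 103 ± 7.08 and 42.5 ± 1.95 TPM and *Cdkn1c* and *Podxl* 2.53 ± 0.594 and 1.13 ± 0.184, while *Wt1* was at 0.00531 ± 0.0106. The retinal dehydrogenase gene *Aldh1a2* was the highest member of the parietal epithelium list, with 1945 to 2053 normalized counts (112 ± 5.19 TPM). No endothelial gene was at or above 1 TPM, with *Cdh5*, *Kdr* and *Tek* at 0.

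The list of transcription factors of the kidney lineages, of duct, nephron and stroma, holds 37 genes and includes the coactivator gene *Eya1*. Of these 37, 23 (62.2%) were at or above 1 TPM, 18 of them at or above 10 TPM, and 9 were not detected. Beside this stands the share of 50.6% over all protein-coding genes. The factors not detected include *Tfap2b*, *Foxi1* and *Elf5*, known from the duct, and *Six2* and *Hnf4a*, known from the nephron. *Pax8* had 4315, 4288, 4023 and 4190 normalized counts (88.7 ± 2.18 TPM) and *Pax2* 1843, 1883, 1966 and 2026 (45.6 ± 2.04 TPM). *Pax8* and *Pax2* did not overlap in TPM. *Emx2*, *Tfap2a* and *Grhl2*, all active in duct epithelium, had 55.6 ± 4.97, 42.3 ± 3.19 and 49.8 ± 2.29 TPM, and *Elf3* had 161 ± 3.29. *Tfcp2l1*, a factor of the mature duct, had 20.3 ± 2.13 TPM. *Lhx1*, which acts early in the nephric duct, had 23 to 31 normalized counts (0.865 ± 0.133 TPM).

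Of the 25 genes of the ureteric bud and nephric duct list, 12 were at or above 1 TPM, 6 lay between and 7 were not detected. *Sox9*, a factor active in the bud, was the lowest at or above 1 TPM, with 1.06 ± 0.271. *Ret*, the receptor for the growth factor GDNF, was at 0 in every library, its co-receptor gene *Gfra1* had 0.0348 ± 0.0439 TPM and its targets *Etv4* and *Etv5* 0.216 ± 0.0909 and 0.890 ± 0.156. *Wnt11* had 0.147 ± 0.0984 TPM and *Wnt9b* was at 0. Of the nephron progenitor list, *Eya1* (49.1 ± 2.26 TPM) was expressed and *Six2* was at 0.

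Hox genes mark position along the body axis, and low paralog numbers act toward the head. Of 39 measured, 23 were at or above 1 TPM, 10 of 11 in the A cluster and 9 of 10 in the B cluster, but 2 of 9 in each of the C and D clusters. The B cluster held 71.4% of the summed Hox TPM and the A cluster 25.9%. *Hoxb9* was the highest, with 10406, 10578, 10338 and 10705 normalized counts (522 ± 5.07 TPM), followed by *Hoxa10* (155 ± 10.8) and *Hoxb7* (151 ± 14.7), whose ranges overlapped. Along the B cluster, mean TPM went from *Hoxb2* (5.24 ± 0.779 TPM) through *Hoxb4* (18.3 ± 1.86), *Hoxb5* (39.3 ± 0.517) and *Hoxb6* (110 ± 3.68) to *Hoxb9*, with *Hoxb8* lower (78.1 ± 3.61). *Hoxb1*, at the head end, was at 0.

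In the C and D clusters, only *Hoxc4* (9.34 ± 1.08 TPM), *Hoxc9* (2.47 ± 0.399), *Hoxd8* (17.2 ± 1.02) and *Hoxd9* (4.54 ± 0.639) were at or above 1 TPM. *Hoxc11*, *Hoxc12*, *Hoxc13*, *Hoxd11* and *Hoxd12* were at 0 in every library. *Hoxa11*, which patterns the kidney together with its D cluster paralog, had 180 to 260 normalized counts (11.7 ± 1.91 TPM). Of the 4 clusters' paralogs numbered 13, *Hoxb13* was thus the one at or above 1 TPM, and *Hoxa13* had 13 to 17 normalized counts (0.815 ± 0.106 TPM).

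**Figure D3:**
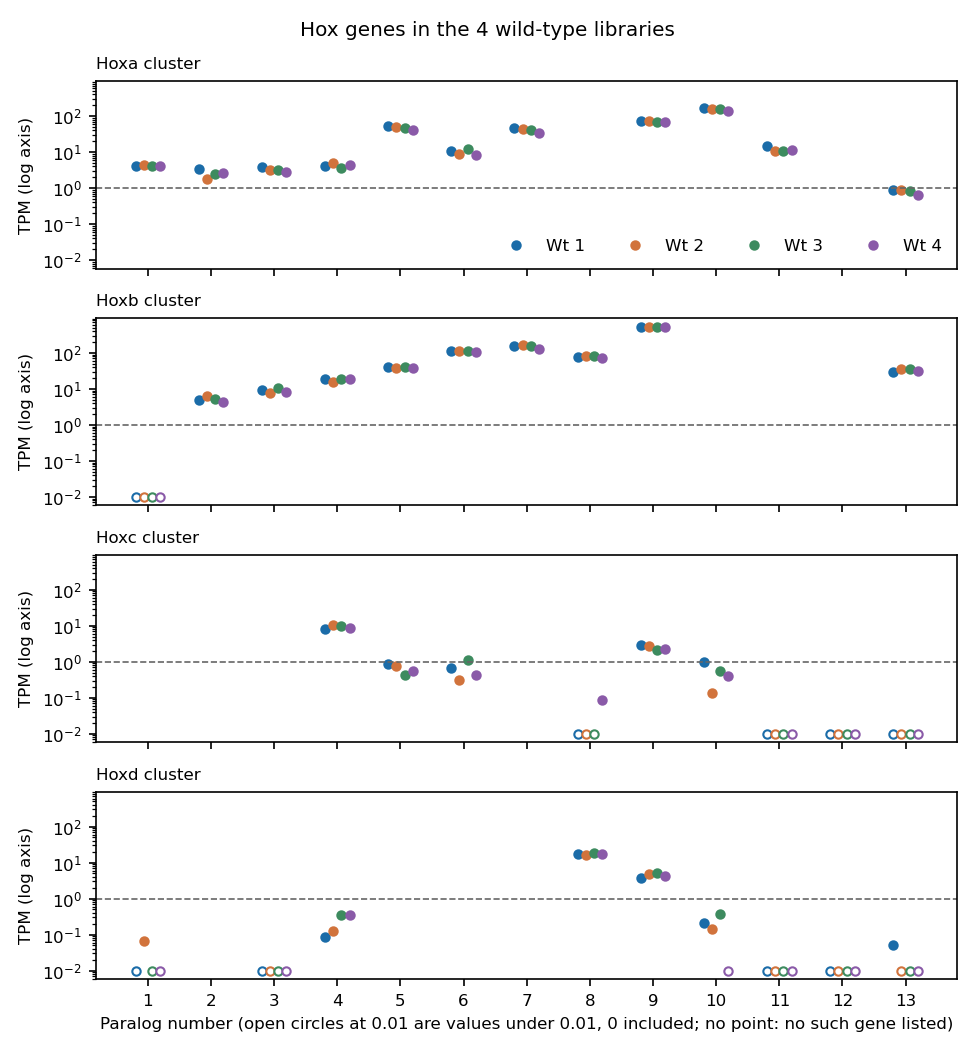
TPM of the Hox genes in the 4 wild-type libraries (log axis) is plotted by paralog number, in a panel for each cluster, with values under 0.01 as open circles at 0.01. The B cluster climbs from 5.24 TPM at *Hoxb2* to 522 TPM at *Hoxb9*, and most points of the C and D clusters lie under the dashed line at 1 TPM.

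Genes of a simple, polarized epithelium were expressed in large part. Keratins of simple epithelia were high, with *Krt18* at 19130, 20229, 19146 and 16780 normalized counts (1676 ± 149 TPM) and its partner *Krt8* at 9069, 9435, 8760 and 8039 (577 ± 43.7 TPM). *Krt18* over *Krt8* was 2.90 ± 0.0585 in TPM, and in each of the 4 libraries it lay between 2.84 and 2.98. *Krt7* had 156 ± 7.84 TPM. *Krt18* alone held 61.1% of the summed TPM of the 53 keratin genes measured, of which 9 were at or above 1 TPM. Keratins known from stratified epithelia were low or not detected. *Krt10* had 13.4 ± 1.42 TPM, *Krt15* 4.25 ± 0.174, *Krt80* 1.54 ± 0.185 and *Krt17* 1.40 ± 0.323, while *Krt5*, *Krt6a* and *Krt1* were at 0 and *Krt14* had 0, 0, 0 and 2 normalized counts.

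Of 21 genes of epithelial adhesion, 18 were at or above 1 TPM. *Epcam* had 22739, 23947, 22263 and 20576 normalized counts (1304 ± 92.8 TPM). E-cadherin, *Cdh1*, had 383 ± 13.1 TPM, P-cadherin, *Cdh3*, 272 ± 23.9, and the kidney cadherin *Cdh16* 68.0 ± 3.07, without overlap among these cadherins. The N-cadherin gene *Cdh2* had 1.80 ± 0.279 TPM. Of 28 tight junction and polarity genes, 23 were at or above 1 TPM, led by *Cldn4* (444 ± 44.0 TPM) and *Cldn7* (408 ± 30.9), whose ranges overlapped. *Cldn4* over *Cldn7* was 1.09 ± 0.0566 in TPM but 0.746 by the principal transcripts, so their order depends on the gene length. *Cldn3* had 48.5 ± 5.35 TPM and *Cldn8*, of the distal nephron and duct, 5.78 ± 0.824. The claudins of the thick ascending limb and proximal tubule, *Cldn16* and *Cldn10*, were at 0, and *Cldn2* had 0.989 ± 0.190 TPM, just under 1. The scaffold gene *Tjp1* had 126 ± 12.4 TPM.

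Among 20 epithelial regulators, 19 were at or above 1 TPM. The lipid raft gene *Mal2* (1256 ± 43.7 TPM), the protease inhibitor gene *Spint2* and the Ets factor gene *Ehf* (340 ± 22.9 TPM) were the highest, and the splicing regulators *Esrp1* and *Esrp2* had 97.9 ± 3.11 and 58.8 ± 1.72 TPM. Only *Klf4* (0.188 ± 0.0841 TPM) was under 1.

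Of 18 mesenchymal genes, 6 were at or above 1 TPM. *Sparc* (97.3 ± 7.26 TPM) and *Fn1*, for fibronectin (81.1 ± 7.49 TPM), stood far above *Tagln* and *Acta2* (6.99 ± 0.908 and 6.96 ± 0.954 TPM). Vimentin, *Vim*, had 43, 27, 31 and 32 normalized counts (0.896 ± 0.186 TPM), a value that passes 1 with other gene lengths (1.11 TPM with the longest and 1.31 TPM with the principal transcript). The repressors of epithelial genes *Zeb1* and *Zeb2* had 0.0932 ± 0.0385 and 0.448 ± 0.0705 TPM, and *Snai2* was at 0.

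Basement membrane collagen IV forms trimers of either alpha 1 and 2 chains or alpha 3 to 6 chains, and in the line the latter had the higher levels. *Col4a5* had 61.0 ± 3.34 TPM, *Col4a4* 41.2 ± 1.91, *Col4a6* 32.0 ± 2.32 and *Col4a3* 21.1 ± 1.62, with no overlap between neighbors in this order. *Col4a2* had 68 to 94 normalized counts (1.52 ± 0.250 TPM) and *Col4a1* 38 to 69 (0.993 ± 0.246 TPM). *Col4a5* over *Col4a1* was 64.8 ± 18.2 in TPM. *Col4a1* was chosen after its value was seen. *Col18a1* was the highest collagen gene at 161 ± 12.5 TPM. Among laminins, mean TPM was 99.8 for *Lamb1*, 77.4 for *Lamc1* and 53.7 for *Lama5*.

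**Figure D4:**
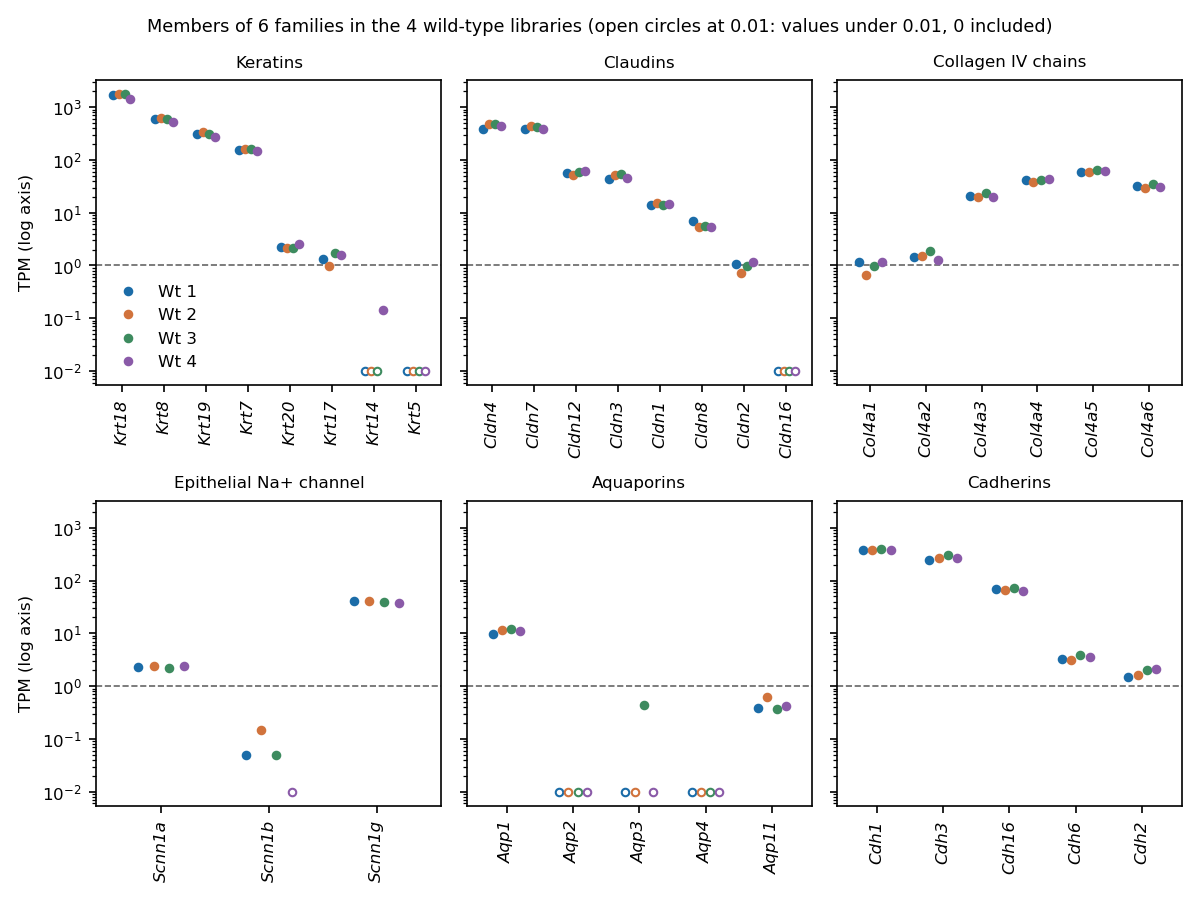
TPM of members of 6 families in each of the 4 wild-type libraries (points, log axis, dashed line at 1 TPM, values under 0.01 as open circles at 0.01). The highest members shown are *Krt18* at 1676 TPM, *Cldn4* at 444, *Col4a5* at 61.0 among collagen IV chains, *Scnn1g* at 39.6, *Aqp1* at 11.2 and *Cdh1* at 383.

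All 23 genes of the primary cilium list, including the polycystins, were at or above 1 TPM, beside 50.6% of all protein-coding genes. *Bicc1*, an RNA-binding gene whose loss gives cysts, was highest (315 ± 18.9 TPM), followed by *Glis2* (242 ± 11) and the small GTPase gene *Arl3* (155 ± 8.46). *Pkd1*, for polycystin-1, had 682, 688, 883 and 876 normalized counts (5.75 ± 0.861 TPM), so that *Pkd2* over *Pkd1* was 8.79 ± 1.31 in TPM and 13.8 by the principal transcripts. *Pkhd1*, for fibrocystin, had 499 to 682 normalized counts (5.32 ± 0.770 TPM), which overlapped with *Pkd1*. The transport genes *Ift88*, *Ift20* and *Ift140* had 20.1 ± 0.684, 73.2 ± 1.23 and 24.3 ± 1.12 TPM. Of 11 motile cilium genes only the factor *Foxj1* (667 to 777 normalized counts, 35.4 ± 3.09 TPM) and *Ccdc39* (2.47 ± 0.416 TPM) were at or above 1 TPM, and the dynein arm genes *Dnah5* and *Dnah9* were at 0.

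Of 385 genes named as solute carriers, 181 (47.0%) were at or above 1 TPM and 156 (40.5%) were not detected, close to the shares over all protein-coding genes. The name also takes in the scaffold gene *Slc9a3r1*, which is not a carrier. The highest were mitochondrial carriers, *Slc25a4* (778 ± 44.8 TPM) and *Slc25a3* (578 ± 11.7). The amino acid transporter subunit gene *Slc3a2* had 281 ± 10.6 TPM and the glucose transporter gene *Slc2a1* 265 ± 10.7. *Atp1b1*, for the beta chain of the sodium pump, had 903 ± 29.9 TPM. The basolateral cotransporter gene *Slc12a2* had 49.9 ± 3.23 TPM, whereas the apical exchanger gene *Slc9a3* was at 0.

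Potassium channel genes were sparse, with 10 of 94 (10.6%) at or above 1 TPM and 63 (67.0%) not detected. A single member, the leak channel gene *Kcnk1*, had 9468, 9949, 9912 and 9617 normalized counts (557 ± 21.7 TPM) and held 82.4% of the summed TPM of the family. *Kcnj16*, a basolateral channel gene, was next at 47.7 TPM. Of the Trp channels, *Trpv4*, which opens with cell swelling and flow, had 66.9 ± 3.06 TPM, above *Pkd2* (49.9 ± 5.22) by merged exons. The level of *Pkd2* was higher with the other gene lengths, so this order may depend on the length. The chloride channel gene *Cftr* had 0.551 ± 0.154 TPM, *Ano1* 0.282 ± 0.133 and *Ano6* 40.5 ± 2.09, and the bicarbonate exchanger gene *Slc4a2* had 61.4 ± 4.25.

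Of 38 hormone and paracrine receptor genes of the collecting duct, 13 were at or above 1 TPM and 21 were not detected. The adhesion receptor *Adgrg1* (680 ± 41.2 TPM), the thrombin receptor *F2r* (201 ± 11.6), the orphan receptor *Gprc5a* (183 ± 9.75) and the R-spondin receptor *Lgr4* (178 ± 7.74) were the highest. Of the prostaglandin E2 receptors, *Ptger4* had 1264, 1329, 1592 and 2062 normalized counts (30.0 ± 6.64 TPM) and *Ptger1* 997 to 1168 (25.4 ± 1.56 TPM), which overlapped. *Ptger2* was at 0 and *Ptger3*, at 0.00558 ± 0.0112 TPM, was not detected either. The endothelin receptors *Ednra* and *Ednrb*, the angiotensin receptor *Agtr1a* and the calcitonin receptor *Calcr* were at 0 in every library. The nucleotide receptor *P2ry2* had 9.37 ± 0.450 TPM and the adenosine receptor *Adora1* 44.7 ± 0.785. Among 334 genes named like G protein-coupled receptors, 56 (16.8%) were at or above 1 TPM, with *Gprc5c* next to *Adgrg1* at 498 ± 18.0. The names take in other genes too, such as *Ptgfrn*, so these are not exact counts of receptors.

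Receptor tyrosine kinase genes were at or above 1 TPM in 21 of 42 cases, beside 50.6% of all protein-coding genes. The collagen receptor *Ddr1* (199 ± 18.1 TPM) was the highest, with *Ryk* (194 ± 8.96) overlapping. Receptors of the epidermal growth factor family followed, *Erbb2* at 120 ± 9.16 TPM, *Erbb3* at 107 ± 9.04 and *Egfr* at 78.0 ± 4.16, with *Erbb4* at 0.0310 ± 0.0145. *Met*, for the hepatocyte growth factor receptor, had 70.9 ± 4.74 TPM and *Fgfr2* 40.3 ± 2.13, while *Fgfr1*, *Fgfr4* and *Kit* were at 0.

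Of 33 morphogen and cytokine receptor genes, 27 were at or above 1 TPM, from the tumor necrosis factor receptor *Tnfrsf1a* (157 ± 6.07 TPM) and the interferon gamma receptor *Ifngr1* (127 ± 4.25) to *Csf2ra* (1.13 ± 0.270). *Notch2* (107 ± 11.4 TPM) exceeded *Notch1* (10.5 ± 1.25) and *Notch3* (4.61 ± 0.305). Of the Wnt pathway, 7 of 10 Frizzled genes were at or above 1 TPM, led by *Fzd6* at 116 TPM, and 8 of 19 ligands, of which *Wnt7b* held 78.1% of the summed TPM and *Wnt9a* was next at 72.4. Nuclear receptors were at or above 1 TPM in 12 of 32 cases, led by *Rxrb* (113 ± 5.76 TPM), and the estrogen receptor *Esr1* had 0.0980 ± 0.0206 TPM and the progesterone receptor *Pgr* was at 0.

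Of 566 transcription factors read by family and list, 263 (46.5%) were at or above 1 TPM, 36 of them at or above 100 TPM, and 219 (38.7%) were not detected, beside 50.6% and 40.7% of all protein-coding genes. The highest were *Egr1* at 611 ± 97.3 TPM, *Junb* at 610 and *Jund* at 524, then *Hoxb9*, and *Scx*, known from tendon, at 6982, 7836, 7630 and 7235 normalized counts (473 ± 29.4 TPM). *Atf4* had 408 TPM, the Notch target *Hes1* 405 ± 148, *Fos* 400, *Ehf* 340 and *Myc* 322. Of 6 *Gata* genes, *Gata3* alone was at or above 1 TPM, and of 19 *Sox* genes 6 were, *Sox4* at 87.1 ± 8.67 TPM and *Sox9* at 1.06 ± 0.271.

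All 23 genes of the proliferation list were at or above 1 TPM, beside 50.6% of all protein-coding genes. Of these, 22 were at or above 10 TPM, and the list summed to 6647 ± 278 TPM. Both the count and the sum include the cell cycle inhibitor genes *Cdkn2a*, *Cdkn1a* (249 ± 19.0 TPM) and *Cdkn1b* (154 ± 8.45). The replication licensing genes *Mcm6* and *Mcm4* had 664 ± 34.7 and 647 ± 16.5 TPM, and *Mki67*, a marker of cycling cells, had 4707, 4582, 5145 and 3461 normalized counts (57.0 ± 10.2 TPM), lowest in replicate 4. The inhibitor gene *Cdkn2a* was the highest of the list, at 7296, 8659, 8848 and 7757 normalized counts (889 ± 93.0 TPM). *Ccnd1*, for cyclin D1, had 25 to 50 normalized counts (1.03 ± 0.278 TPM). With a library left out, the count of the list at or above 1 TPM was 22 or 23. With the longest or the principal transcript as the gene length it was 22.

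Of 18 genes known from injured tubules, 15 (83.3%) were at or above 1 TPM, beside 50.6% of all protein-coding genes. *Ccn1* had 29131, 47935, 54423 and 65525 normalized counts, lowest in replicate 1, and its relative *Ccn2* had 5068, 6553, 7102 and 8736. *Lcn2*, for the secreted lipocalin NGAL, had 2616 to 2954 (138 ± 9.33 TPM), and *Anxa3* had 235 ± 2.61 TPM. *Havcr1*, for kidney injury molecule 1, was at 0 in every library. The list's summed TPM ran from 2863 to 5191, of which all but 1077 on average came from *Ccn1*.

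Over the 10632 genes that averaged 100 normalized counts or more, the CV of TPM between dishes had a median of 6.60% and a 95th percentile of 15.3%. The CV of TPM was 0.973% for *Hoxb9*, 2.04% for *Elf3*, 2.46% for *Pax8*, and 4.04% for *Npnt*, all under this median, and 8.42% for *Krt19*, above it. The markers *Pkd2* (49.9 ± 5.22 TPM) and *Hoxb13* (32.9 ± 2.98 TPM) were above this median too, and *Spp1* (300 ± 16.9 TPM) was under it. Mitochondrial messages varied more. *mt-Co1* had 227773, 172867, 123871 and 341606 normalized counts, and the 13 mitochondrial protein-coding genes together ranged from 333836 in replicate 3 to 932276 in replicate 4, a 2.79-fold range. All mitochondrial genes took 1.36% to 3.61% of a library's counts.

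A second group followed another order of dishes. *Fosb* had 128, 345, 293 and 631 normalized counts, the phosphatase gene *Dusp5* 202, 276, 409 and 606, and *Hes1* 3783, 5583, 6928 and 9545, with replicate 1 lowest and replicate 4 highest in each. The third group was highest in replicate 1 and lowest in replicate 4. It held the ribosomal RNA locus *CT010467.1* (15208, 7891, 4998 and 3016 normalized counts), the annotated microRNA loci *Gm23935* and *Mir6236*, and *Lars2* (4960, 2688, 2505 and 1874). The 10 largest CVs of TPM belonged to *CT010467.1*, *Gm23935*, *Mir6236* and 7 pseudogenes, with *Gm12504* first at 465, 53, 61 and 54 normalized counts. Dish, RNA preparation and library cannot be told apart, and *Fosb*, *Dusp5* and *Lars2* were chosen after their values were seen.

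**Figure D5:**
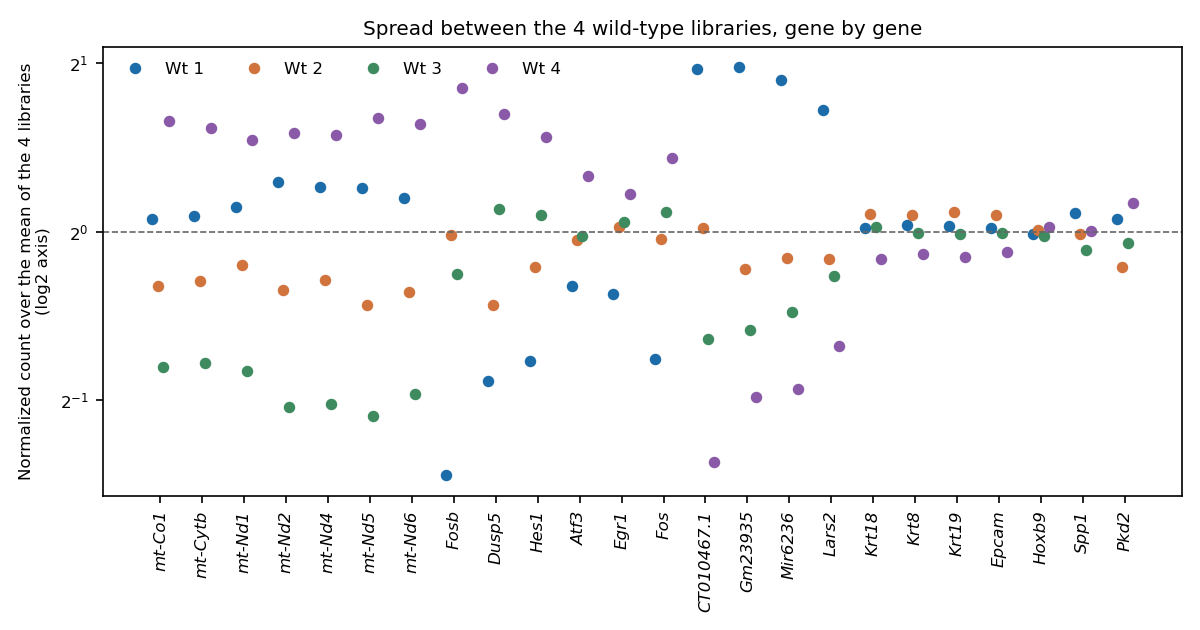
Normalized count of each gene divided by its mean over the 4 wild-type libraries (log2 axis), with a point per library. Mitochondrial genes are highest in replicate 4 and lowest in replicate 3, and the group from *CT010467.1* to *Lars2* is highest in replicate 1. *Krt18*, *Epcam*, *Hoxb9* and the markers *Krt19*, *Spp1* and *Pkd2* spread less around the dashed line at the mean than these groups do.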

How the data were processed

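Wild-type mIMCD3 cells were profiled by RNA-seq (Wt, replicates 1 to 4). According to their methods, the authors trimmed reads with Trim Galore, aligned them to the mouse genome with HISAT2, counted them per gene with htseq-count and divided the counts by DESeq2 size factors. The deposited values are these normalized counts rounded to whole numbers, treated here as a score and not as raw counts. Whether counting used strand is not given in the sources used here, so reads of overlapping or antisense genes cannot be told apart.

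Of 47642 genes listed, 47223 matched GENCODE M21 (GRCm38) by identifier and got a symbol and a length. TPM is the normalized count per kilobase of merged exons, scaled to 1000000 per library over these genes. The reads per library were estimated from which whole numbers the rounded values take, a step checked on simulated data. The 8 columns of the other genotypes were not used, and some genes are not reported here.

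With 1 group there was no comparison and no test, and order within a list was read from whether the ranges of the 4 libraries overlap. Genes named were the 4 markers, the 20 highest by count and by TPM, members of 35 fixed lists, the highest members of 26 families and the 10 genes of largest CV. The members and lists were chosen with earlier results of these data known. Alternatives were other gene lengths, thresholds, floors, totals and averages and leaving out each library, and the principal transcript length was added after seeing the data. Python 3.11.15, numpy 2.4.6, pandas 2.3.3 and matplotlib 3.10.9 were used.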

Additional observations from a re-analysis of the deposited data

Results flagged for a closer look

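Of 227 named genes above the floor in at least 1 library, 17 had 1 library set apart from the other 3, by a gap that passed Dixon's limit for 4 samples. The limit is set for independent, normally distributed values, of which about 1 group in 20 would pass. This rate does not hold for rounded low counts or for genes named for their spread. The 17 of 227 can therefore not be set against it. The library set apart was replicate 1 for 8 genes, replicate 2 for 5, replicate 3 for 2 and replicate 4 for 2. *Aqp3*, *Slc14a1* and *Slc26a4* passed the floor only through the library set apart. *Gm12504*, *Gm10925* and *Gm28437* are among the genes named for their large CV between these libraries. The flags of these genes follow from how they were chosen and are no sign of an outlying library. The values given here are normalized counts.

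In replicate 1, the adhesion receptor gene *Adgrg1* was low at 26330, beside 29554 to 29760 in the other libraries. *Junb* was low there at 8652, beside 11531 to 11909. *Emx2* was high at 1476, beside 1243 to 1257, the claudin gene *Cldn8* at 129, beside 98 to 100, and *Podxl* at 60, beside 44 to 46. *Gm12504*, a pseudogene, had 465 there and 53 to 61 elsewhere. *Wnt11* had 0 in replicate 1 and 6 to 7 in the others, and *Slc26a4* had 4 there and 0 in the others.

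In replicate 2, the factor *Gata3* was low at 176, beside 236 to 248, and *Hoxd8* at 341, beside 376 to 382. The pseudogenes *Gm10925* and *Gm28437* were high there, at 2071 and 1878, beside 564 to 767 and 546 to 726. *Slc14a1* had 5 there and 0 elsewhere. In replicate 3, *Etv5* was high at 35, beside 26 to 27, and *Aqp3* had 6, beside 0. In replicate 4, the thrombin receptor gene *F2r* was high at 5810, beside 5014 to 5112, and the taurine transporter gene *Slc6a6* at 4705, beside 4289 to 4331. *Etv5* lay on both sides of 1 TPM, from 0.791 to 1.12 TPM.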

How the results depend on the processing

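With the longest annotated transcript as the gene length, TPM was 278 for *Krt19*, 251 for *Spp1*, 74.5 for *Pkd2* and 25.2 for *Hoxb13*. With the principal transcript, an alternative chosen after seeing the data, TPM was 245, 222, 65.7 and 22.2 in the same order, and *Spp1* ranked 794 in place of 508. With nuclear protein-coding genes alone in the total, TPM was 353, 343, 57.2 and 37.6, and the 100 highest genes took 13% of the counts in place of 14.3%. The markers kept their order, *Krt19* first and *Hoxb13* last, under each of these 3 alternatives.

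For 57 other lists and families under 12 alternatives, 662 of the counts at or above 1 TPM stayed within 1.5 times the reported count and 22 moved further, 12 of them with a threshold of 5 TPM. Leaving out a library moved none of these 57 further than that, and gave 10932 to 10939 protein-coding genes at or above 1 TPM. With the principal transcript as the gene length, 2 counts moved further. The thick ascending limb list went from 0 to 1 member and the fibroblast, pericyte and smooth muscle list from 2 to 4. No paired analysis was possible because the libraries form 1 group and no test was made. The depth limits what can be read of genes at or below 3 normalized counts, and sizes of genes with near-identical copies are uncertain.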
